A study of Arabidopsis thaliana with 12 samples.

Results

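WRKY transcription factors were followed through a list of 46 genes of the family, taken by their gene identifiers from a deposited table of 33602 gene identifiers. WRKY genes outside this list were not examined, so counts and classes refer to the listed members only. All 46 identifiers were in the table, and all 46 passed the filter on low counts that left 20736 genes for testing. RNA came from whole Arabidopsis thaliana seedlings of 4 groups with 3 biological replicates each. These were gp1-2 with GB03, wild type with GB03, gp1-2 without bacteria and wild type without bacteria. The mutant gp1-2 is the T-DNA line SAIL_209_D07 in the Col-0 background, and wild type is Col-0, so the mutant groups rest on 1 insertion line. GB03 is a Bacillus strain that promotes plant growth, and on the divided Y plate it shared air with the seedlings, which makes its volatiles the treatment. Growth conditions were common to all groups: 22 °C, a day of 16 h light and 8 h darkness, and a dilute Murashige and Skoog agar containing 1% sucrose. Transfer to the Y plate took place at an age of 5 days, and harvest followed at 7 days, after 2 days with or without the bacteria. The study asks what a stearoyl-ACP desaturase contributes to the interaction with beneficial rhizobacteria. Such an enzyme makes oleic acid in plastids.

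WRKY factors are plant transcription factors whose DNA-binding domain opens with a run of nearly invariant amino acids, the WRKY heptad, and continues with a zinc finger. They bind DNA elements called W boxes, which also lie upstream of many WRKY genes, so that members can regulate each other. Many members are known for their induction by salicylic acid, pathogens, senescence or abiotic stress. MAP kinases phosphorylate some of them, and proteins with a VQ motif bind several.

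The coding sequences divided the 46 members into 3 classes. In 10 members the heptad occurred in 2 domains (group I), in 26 it occurred once before a finger closed by 2 histidines (group II), and in 10 it occurred once before a finger closed by a histidine and a cysteine (group III). The coding stretch of the heptad is printed for members that recur below, from the RefSeq annotation of TAIR10.1, with the codon of the sixth amino acid in capitals. It encoded glutamine in 54 heptads of 44 members and lysine in the single heptads of the other 2 members, WRKY50 and WRKY51.
WRKY50, minus strand, chr5:9147579-9147599: tggagaaagtatgggAAGaag
WRKY51, plus strand, chr5:25908864-25908884: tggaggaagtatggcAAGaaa
WRKY70, minus strand, chr3:20909760-20909780: tggaggaaatatggaCAAaag
WRKY53, minus strand, chr4:12393134-12393154: tggagaaaatatggtCAAaaa
WRKY33, first domain, plus strand, chr2:16109358-16109378: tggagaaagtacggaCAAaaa
WRKY33, second domain, plus strand, chr2:16109982-16110002: tggagaaaatacggcCAGaaa

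Upstream regions are shown because W boxes are the element that these proteins bind. The motifs searched were TTGACC and TTGACT on both strands, which read GGTCAA and AGTCAA on the opposite strand, in the 300 bases before each RefSeq gene start. At least 1 such motif was present in 20 of 46 members (43.5%), against 6695 of 20653 tested genes with an upstream region (32.4%). At least 2 were present in 10 members (21.7%), against 7.77% of the tested genes. WRKY33 and WRKY30 held 3 each, the highest number among the members, and WRKY40 held none in this window. The sequences of these 3 members follow in the direction of transcription, with the W boxes in capitals.
WRKY33, plus strand, chr2:16107935-16108234: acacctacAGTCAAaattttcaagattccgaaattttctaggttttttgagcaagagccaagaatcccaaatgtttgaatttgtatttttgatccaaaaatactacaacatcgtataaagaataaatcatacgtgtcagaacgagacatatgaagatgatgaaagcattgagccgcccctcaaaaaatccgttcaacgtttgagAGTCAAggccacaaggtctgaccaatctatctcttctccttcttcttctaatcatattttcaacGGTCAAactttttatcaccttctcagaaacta
WRKY30, minus strand, chr5:8154711-8155010: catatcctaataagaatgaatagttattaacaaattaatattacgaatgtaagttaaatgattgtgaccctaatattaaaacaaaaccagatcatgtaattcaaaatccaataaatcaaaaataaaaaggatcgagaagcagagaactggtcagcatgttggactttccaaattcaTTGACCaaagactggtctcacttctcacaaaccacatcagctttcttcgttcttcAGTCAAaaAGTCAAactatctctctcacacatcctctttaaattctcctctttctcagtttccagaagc
WRKY40, plus strand, chr1:30383261-30383560: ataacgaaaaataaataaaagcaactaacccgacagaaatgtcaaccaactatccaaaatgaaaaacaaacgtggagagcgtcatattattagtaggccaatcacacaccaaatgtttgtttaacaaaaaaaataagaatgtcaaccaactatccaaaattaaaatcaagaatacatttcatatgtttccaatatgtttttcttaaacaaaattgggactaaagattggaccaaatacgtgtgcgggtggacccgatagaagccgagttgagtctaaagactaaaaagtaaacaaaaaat
In WRKY33 the W boxes lay between 292 and 32 bases before the gene start, and in WRKY30 between 124 and 61 bases before it. A match is a description of the letters and not a shown binding site. Among the 30 members called higher in gp1-2 without bacteria 46.7% had a W box, among the other 16 members 37.5%, and among all tested genes called higher in that comparison 40.7%.

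Total counts ran from 19583445 to 25214934 in gp1-2 with GB03, from 15196962 to 15839067 in wild type with GB03, from 17908408 to 18725561 in gp1-2 without bacteria and from 11158051 to 14999793 in wild type without bacteria. Every gp1-2 library was thus deeper than every wild-type library. Levels are counts scaled to library size with TMM factors (CPM). A member is called at a Benjamini-Hochberg adjusted p under 0.05 over all genes tested, from edgeR's quasi-likelihood test. The labels do not name the gene hit in gp1-2. Transcripts of FAB2, which encodes the main stearoyl-ACP desaturase, averaged 644 ± 80.9 CPM in gp1-2 and 176 ± 7.78 CPM in wild type with GB03, and 679 ± 82.8 CPM in gp1-2 and 123 ± 5.33 CPM in wild type without bacteria (SD, n = 3 each). A count over the whole gene includes reads on either side of an insertion and does not check the line. Replicate 3 stood apart from replicates 1 and 2 in every group, since the chi-square statistic of gene counts, divided by its degrees of freedom, was 9.28 to 15.3 for pairs with replicate 3 and 2.58 to 8.10 for the other pairs. WRKY33, WRKY40 and WRKY46 were lowest in replicate 3 in all 4 groups, so counts without replicate 3 are given below. Seed and flower marker genes summed to under 1 CPM in every library. The 5 root marker genes summed to 48.1 to 57.7 CPM in gp1-2 and 56.4 to 59.6 CPM in wild type with GB03, and to 49.9 to 56.9 CPM in gp1-2 and 57.9 to 63.7 CPM in wild type without bacteria. In bulk seedlings, fewer cells of a type cannot be told apart from less RNA per cell.

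Most of the 46 listed WRKY transcripts were higher in gp1-2 seedlings, whether or not GB03 was present. The members were chosen with earlier results of these data known, which bears on the shares below. Without bacteria 30 of 46 members (65.2%) rose, against 20% of all genes tested, and 2 members fell (WRKY7 and WRKY11), against 17.2% of all genes. With GB03 32 members (69.6%) rose, against 22.6% of all genes, and 0 fell, against 23.3% of all genes. At an unadjusted p under 0.05, 34 members differed in either direction with GB03, against 51.9% of all genes. DESeq2 and limma-voom also called 0 members lower there, upper-quartile scaling called WRKY20 and WRKY65 lower, and the fit with the replicate number as a block called WRKY65. The rise was at least 1 on the log2 scale for 25 members without bacteria and for 27 with GB03, against 7.26% and 9.51% of all genes. The median log2 fold change of the 46 members was 1.29 without bacteria and 1.70 with GB03, beside medians of -0.02 and -0.04 over all genes tested. Groups did not overlap for 31 members that were higher and 3 that were lower in gp1-2 without bacteria, against 24.8% and 22.7% of all genes. With GB03 these numbers were 33 and 3, against 26% and 28.2%. Of the 46 members, 28 were called higher in both conditions, 11 were called in neither, and WRKY11 was called lower without bacteria and higher with GB03. The shares of all genes called higher in both conditions or in neither were not counted. No library enters both genotype comparisons, but both rest on 1 fit over all 12 libraries.

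Part of the count of members called higher was set by the filter. WRKY30, WRKY38, WRKY41, WRKY50, WRKY55, WRKY62 and WRKY63 reached the filter's level of 0.593 CPM in fewer than 3 wild-type libraries, so they entered the test through gp1-2 and could only be higher there. All of these are among the 28 called higher in both conditions. Among the other 39 members, 23 rose and 2 fell without bacteria, and 25 rose and 0 fell with GB03. Their median log2 fold changes were 0.63 and 1.18. The shares of all genes under the same restriction were not counted, so these counts have no matched background beside them. Without replicate 3, 31 members rose and 2 fell without bacteria, and 32 rose and 0 fell with GB03. Shoot marker genes moved with the genotype: all 4 fell in gp1-2 in both conditions, and their sum was 11794 to 13328 CPM in gp1-2 and 29541 to 33617 CPM in wild type with GB03, and 16439 to 17217 CPM in gp1-2 and 27130.4 to 34670.0 CPM in wild type without bacteria. Their part in the WRKY result was not tested.

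**Figure D1:**
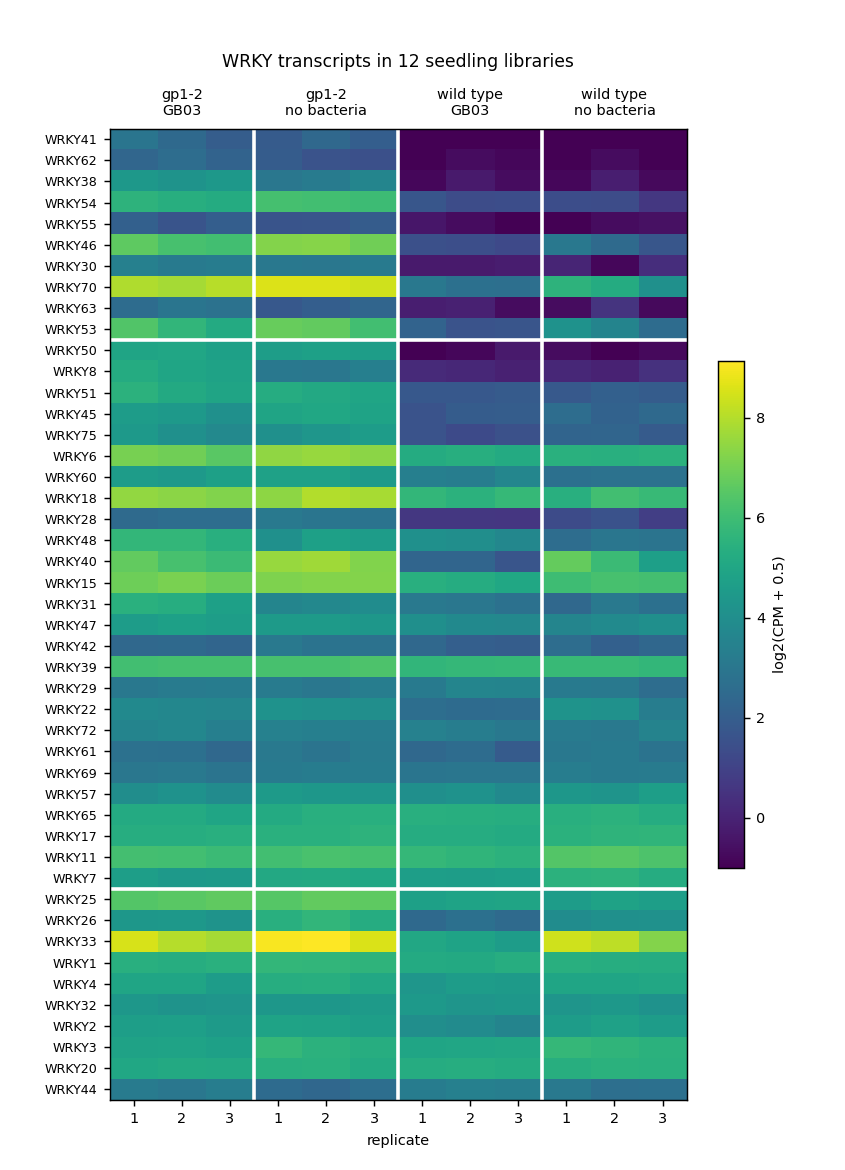
Level of each of the 46 WRKY transcripts in each of the 12 libraries, as colour on a log2(CPM + 0.5) scale. Rows are members, in blocks from top to bottom of group III, group II and group I; columns are replicates 1 to 3 of gp1-2 with GB03, gp1-2 without bacteria, wild type with GB03 and wild type without bacteria. The group III block is lighter in all 6 gp1-2 libraries than in the wild-type libraries, and most group I rows change little.

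The calls between genotypes were also counted by sequence class. In group III all 10 listed members rose in both conditions, with median log2 fold changes of 4.75 without bacteria and 4.94 with GB03. Of these 10, 6 are among the 7 that entered the test through gp1-2, so their direction was set by the filter, and the medians include them. WRKY53, WRKY70, WRKY46 and WRKY54 did not enter that way. Their log2 fold changes were 2.99 to 5.16 without bacteria and 4.17 to 5.24 with GB03. In group II 16 of 26 members rose and 2 fell without bacteria, and 17 rose and 0 fell with GB03, with medians of 0.83 and 1.19. In group I 4 of 10 rose without bacteria and 5 with GB03, with medians of 0.20 and 0.27, and 0 fell in either condition. Of all genes tested 20% rose and 17.2% fell without bacteria, and 22.6% rose and 23.3% fell with GB03. With 10 members in a class, 0 falls is not read as a result. The difference between classes was not tested.

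**Figure D2:**
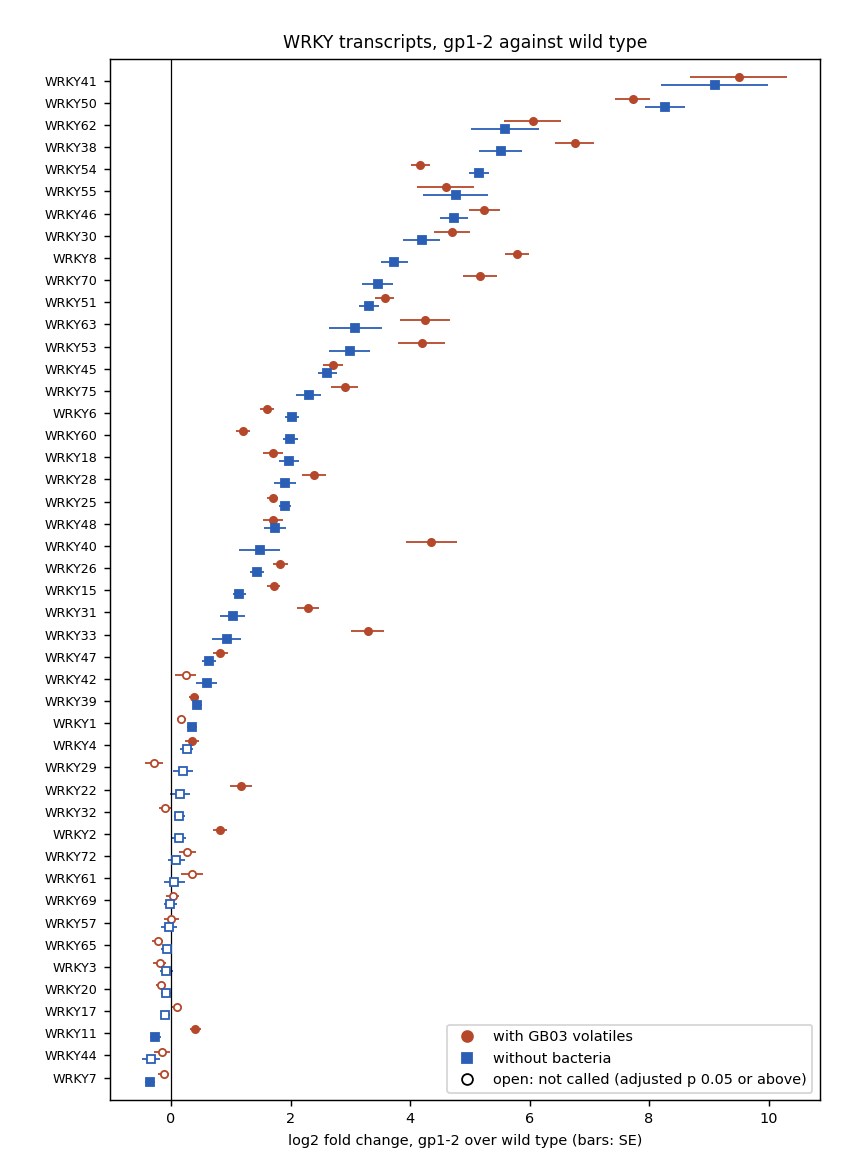
Log2 fold change of each of the 46 members, gp1-2 over wild type, with GB03 volatiles (circles) and without bacteria (squares); bars are SE, and open symbols were not called. WRKY41 and WRKY50, at the top, and also WRKY62 and WRKY55 rest on 0 to 6 summed wild-type counts a group, so their positions depend on the prior count of the fit. WRKY40, WRKY33, WRKY31, WRKY22 and WRKY2 lie farther to the right with GB03 than without bacteria.

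Among group III members, WRKY70 (AT3G56400) and WRKY54 (AT2G40750) are close homologues that act in salicylic acid signalling. WRKY70 stood at 386, 388 and 337 CPM in gp1-2, against 46.1, 37.7 and 16.4 CPM in wild type, without bacteria. WRKY70 under GB03 stood at 246, 216 and 262 CPM in gp1-2, against 7.94, 6.12 and 5.95 CPM in wild type. The groups did not overlap in either condition. gp1-2 was 10.97-fold higher without bacteria (log2 fold change 3.46 ± 0.25 SE, adjusted p = 2.9e-08) and 36.2-fold higher with GB03 (5.18 ± 0.28, adjusted p = 7.0e-10). The WRKY54 transcript measured 69.9, 65.9 and 60.7 CPM in gp1-2 without bacteria, against 2.16, 2.08 and 1.05 CPM in wild type. Under GB03 the WRKY54 transcript measured 47.0, 40.6 and 37.6 CPM in gp1-2, against 2.74, 2.04 and 2.13 CPM in wild type. Its gp1-2 libraries also lay above every wild-type library, with differences of 5.16 ± 0.17 without bacteria and 4.17 ± 0.16 with GB03 on the log2 scale (adjusted p = 2.5e-12 and 1.2e-11). WRKY55 (AT2G40740) is annotated beside WRKY54 on chromosome 2, on the other strand. Without bacteria WRKY55 had 2.65, 2.71 and 3.33 CPM in the gp1-2 libraries, against 0, 0.134 and 0.191 CPM in wild type. With GB03 WRKY55 had 3.86, 2.57 and 3.63 CPM in gp1-2, against 0.267, 0.132 and 0 CPM in wild type. Wild type was near the limit of counting there, and gp1-2 was low but above every wild-type library (log2 fold changes 4.76 ± 0.54 and 4.60 ± 0.48). WRKY55 entered the test through gp1-2 and could only be higher there.

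WRKY46 (AT2G46400) and WRKY53 (AT4G23810) act with WRKY70 in resistance to bacteria, and WRKY53 is also known for promoting leaf senescence. WRKY46 stood at 151, 159 and 121 CPM in gp1-2, against 7.77, 5.16 and 2.77 CPM in wild type, without bacteria. WRKY46 under GB03 stood at 99.0, 73.4 and 67.7 CPM in gp1-2, against 2.27, 2.17 and 1.87 CPM in wild type. The genotypes were separated by 26.6-fold and 37.9-fold (log2 fold changes 4.73 ± 0.24 and 5.24 ± 0.26, adjusted p = 3.7e-10 and 2.5e-10). The WRKY53 transcript measured 111, 104 and 67.1 CPM in gp1-2 without bacteria, against 17.6, 11.5 and 5.54 CPM in wild type. Under GB03 the WRKY53 transcript measured 84.0, 51.1 and 36.6 CPM in gp1-2, against 4.14, 2.50 and 2.72 CPM in wild type. The replicates of WRKY53 were spread widely in each group, yet the genotypes did not overlap. The log2 fold changes were 2.99 ± 0.34 without bacteria and 4.19 ± 0.40 with GB03. An annotated gene on the opposite strand overlaps WRKY53, and the strand setting of the counting is not given in the sources used here, so reads of the pair may be mixed. The same holds for WRKY1 (AT2G04880), WRKY2 (AT5G56270), WRKY4 (AT1G13960), WRKY29 (AT4G23550), WRKY33 (AT2G38470), WRKY40 (AT1G80840), WRKY41 (AT4G11070), WRKY61 (AT1G18860) and WRKY69 (AT3G58710), and for no other member.

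WRKY38 (AT5G22570) and WRKY62 (AT5G01900) are a pair of salicylic acid-induced repressors of basal defence. Without bacteria WRKY38 had 7.66, 8.90 and 11.7 CPM in the gp1-2 libraries, against 0.0676, 0.402 and 0.0956 CPM in wild type. With GB03 WRKY38 had 20.5, 17.9 and 20.5 CPM in gp1-2, against 0.0667, 0.329 and 0.129 CPM in wild type. WRKY38 was thus rare in every wild-type library and common to all gp1-2 libraries. WRKY62 stood at 3.42, 2.49 and 2.28 CPM in gp1-2, against 0, 0.134 and 0 CPM in wild type, without bacteria. WRKY62 under GB03 stood at 4.60, 5.69 and 4.25 CPM in gp1-2, against 0, 0.132 and 0.0647 CPM in wild type. Both transcripts were close to the detection limit in wild type and were counted in every gp1-2 library. Both entered the test through gp1-2 and could only be higher there, so their genotype calls are no support. For WRKY38 the log2 fold changes were 5.52 ± 0.36 without bacteria and 6.75 ± 0.33 with GB03. For WRKY62 the summed counts were 150 in gp1-2 and 2 in wild type without bacteria, a ratio of 54.6 with a 95% exact counting interval of 14.9 to 455. With GB03 they were 327 in gp1-2 and 3 in wild type, a ratio of 73.3 with an interval of 24.8 to 357. Counting intervals and floors cover counting error only.

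WRKY41 acts in seed dormancy and in responses to pathogens. The WRKY41 transcript measured 3.31, 4.92 and 3.55 CPM in gp1-2 without bacteria, against 0, 0 and 0 CPM in wild type. Under GB03 the WRKY41 transcript measured 7.23, 5.05 and 3.47 CPM in gp1-2, against 0, 0 and 0 CPM in wild type. It had no count in any wild-type library. Against a floor of 3 counts summed over the 3 wild-type libraries it was at least 52.5-fold higher in gp1-2 without bacteria and at least 77.5-fold higher with GB03. The remaining group III members of the list were WRKY30 (AT5G24110) and WRKY63 (AT1G66600), the second of which acts in abscisic acid responses. WRKY30 averaged 7.92 ± 0.402 CPM in gp1-2 and 0.458 ± 0.356 CPM in wild type without bacteria, and 9.34 ± 0.890 CPM in gp1-2 and 0.350 ± 0.0327 CPM in wild type with GB03 (SD, n = 3 each). WRKY63 averaged 3.62 ± 0.739 CPM in gp1-2 and 0.390 ± 0.476 CPM in wild type without bacteria, and 6.36 ± 0.816 CPM in gp1-2 and 0.330 ± 0.177 CPM in wild type with GB03. Both were called higher in both conditions, but like WRKY41 they entered the test through gp1-2 and could only be higher there.

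WRKY50 (AT5G26170) and WRKY51 (AT5G64810), the members with lysine at the sixth position of the heptad, are known from plants low in oleic acid, where they mediate the repression of jasmonate signalling. Without bacteria WRKY50 had 24.4, 26.3 and 24.8 CPM in the gp1-2 libraries, against 0.135, 0 and 0.0956 CPM in wild type. With GB03 WRKY50 had 29.9, 31.5 and 26.4 CPM in gp1-2, against 0, 0.0658 and 0.323 CPM in wild type. The wild-type libraries without bacteria held 3 counts in all against 1388 in gp1-2, a ratio of 337 with a 95% exact counting interval of 115 to 1637. With GB03 the log2 fold change was 7.72 ± 0.30. WRKY50 entered the test through gp1-2 and could only be higher there, so its genotype calls are no support. WRKY51 stood at 38.0, 33.9 and 30.6 CPM in gp1-2, against 3.11, 3.82 and 3.35 CPM in wild type, without bacteria. WRKY51 under GB03 stood at 44.9, 35.7 and 30.2 CPM in gp1-2, against 3.00, 2.96 and 3.30 CPM in wild type. WRKY51 was thus measurable in wild type, and gp1-2 was 9.94-fold and 11.9-fold higher (log2 fold changes 3.31 ± 0.16 and 3.57 ± 0.16, adjusted p = 2.8e-10 and 7.1e-11). In these members neither effect of GB03 was called: the log2 fold changes were 0.22 ± 0.14 in gp1-2 and 0.76 ± 0.99 in wild type for WRKY50, and 0.11 ± 0.13 in gp1-2 and -0.15 ± 0.21 in wild type for WRKY51.

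WRKY18 (AT4G31800), WRKY40 and WRKY60 (AT2G25000) are related proteins that interact with each other and act mostly as repressors in basal defence and abscisic acid signalling. The WRKY18 transcript measured 171, 251 and 228 CPM in gp1-2 without bacteria, against 42.1, 66.6 and 55.8 CPM in wild type. Under GB03 the WRKY18 transcript measured 182, 167 and 149 CPM in gp1-2, against 51.8, 44.8 and 55.7 CPM in wild type. The genotypes did not overlap, with log2 fold changes of 1.98 ± 0.17 without bacteria and 1.71 ± 0.16 with GB03. Without bacteria WRKY60 had 27.2, 27.6 and 22.9 CPM in the gp1-2 libraries, against 6.22, 6.64 and 6.60 CPM in wild type. With GB03 WRKY60 had 24.2, 21.8 and 26.4 CPM in gp1-2, against 9.95, 9.34 and 12.2 CPM in wild type. WRKY60 was higher in every gp1-2 library, by 2.00 ± 0.13 without bacteria and 1.20 ± 0.12 with GB03 on the log2 scale. WRKY40 stood at 189.6, 205 and 148 CPM in gp1-2, against 107, 59.1 and 25.8 CPM in wild type, without bacteria. WRKY40 under GB03 stood at 103, 73.3 and 59.7 CPM in gp1-2, against 4.41, 4.47 and 2.65 CPM in wild type. The wild-type libraries of WRKY40 without bacteria were spread widely, and the highest of them was below the lowest gp1-2 library. gp1-2 was 2.80-fold higher without bacteria (log2 fold change 1.49 ± 0.34, adjusted p = 0.0028) and 20.5-fold higher with GB03 (4.36 ± 0.43, adjusted p = 6.2e-07).

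Other group II members with large differences were WRKY28 (AT4G18170), WRKY8 (AT5G46350), WRKY48 (AT5G49520) and WRKY31 (AT4G22070). WRKY28 is an activator of the salicylic acid synthesis gene ICS1, and WRKY8 is its closest homologue among the members. The WRKY28 transcript measured 8.05, 7.24 and 6.77 CPM in gp1-2 without bacteria, against 1.96, 2.41 and 1.34 CPM in wild type. Under GB03 the WRKY28 transcript measured 5.25, 5.69 and 5.71 CPM in gp1-2, against 1.07, 1.05 and 1.03 CPM in wild type. Every gp1-2 library of WRKY28 lay above the wild-type libraries. Without bacteria WRKY8 had 7.77, 7.63 and 9.84 CPM in the gp1-2 libraries, against 0.608, 0.469 and 0.860 CPM in wild type. With GB03 WRKY8 had 37.0, 30.7 and 28.3 CPM in gp1-2, against 0.667, 0.592 and 0.453 CPM in wild type. Both separated the genotypes in both conditions. WRKY28 differed by 1.91 ± 0.18 without bacteria and 2.39 ± 0.20 with GB03 on the log2 scale, and WRKY8 by 3.74 ± 0.23 and 5.79 ± 0.21. WRKY48 is a repressor of basal resistance to bacteria. WRKY48 stood at 16.5, 26.6 and 23.8 CPM in gp1-2, against 5.61, 7.31 and 7.07 CPM in wild type, without bacteria. WRKY48 under GB03 stood at 51.9, 52.3 and 41.3 CPM in gp1-2, against 16.4, 15.7 and 12.5 CPM in wild type. Its difference was 1.75 ± 0.18 without bacteria and 1.70 ± 0.16 with GB03. The WRKY31 transcript measured 11.6, 12.7 and 14.9 CPM in gp1-2 without bacteria, against 4.87, 8.11 and 6.21 CPM in wild type. Under GB03 the WRKY31 transcript measured 42.3, 39.4 and 26.7 CPM in gp1-2, against 8.08, 7.57 and 6.47 CPM in wild type. WRKY31 was also higher in every gp1-2 library, by 1.03 ± 0.20 and 2.29 ± 0.19.

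WRKY45 (AT3G01970) and WRKY75 (AT5G13080) act in phosphate starvation responses, WRKY75 also in senescence. WRKY45 averaged 30.3 ± 1.88 CPM in gp1-2 and 4.95 ± 0.868 CPM in wild type without bacteria (SD, n = 3 each), and WRKY75 averaged 19.9 ± 3.54 CPM in gp1-2 and 3.98 ± 0.636 CPM in wild type. WRKY6 (AT1G62300), a repressor of the phosphate exporter gene PHO1, averaged 175 ± 12.4 CPM in gp1-2 and 42.9 ± 1.55 CPM in wild type without bacteria. These 3 rose in both conditions. On the log2 scale WRKY45 differed by 2.62 without bacteria and 2.71 with GB03, WRKY75 by 2.30 and 2.90, and WRKY6 by 2.03 and 1.61. WRKY42 (AT4G04450), which shares the PHO1 role, rose without bacteria by 0.59 ± 0.17, a call lost without replicate 2 of wild type or replicate 1 of gp1-2. Its difference with GB03 was 0.24 ± 0.18 and was not called. WRKY47 (AT4G01720) rose by 0.63 ± 0.12 without bacteria and 0.83 ± 0.12 with GB03.

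The calmodulin-binding members WRKY7 (AT4G24240), WRKY11 (AT4G31550), WRKY15 (AT2G23320), WRKY17 (AT2G24570) and WRKY39 (AT3G04670) did not move as 1 block. Without bacteria WRKY15 had 146, 153 and 153 CPM in the gp1-2 libraries, against 63.5, 72.4 and 68.5 CPM in wild type. With GB03 WRKY15 had 119, 135 and 116 CPM in gp1-2, against 41.7, 38.7 and 32.1 CPM in wild type. WRKY15, which acts in mitochondrial stress signalling, was higher in gp1-2 in every library, by 1.14 ± 0.10 without bacteria and 1.72 ± 0.10 with GB03. WRKY11 stood at 67.1, 74.6 and 70.3 CPM in gp1-2, against 85.3, 90.2 and 79.3 CPM in wild type, without bacteria. WRKY11 under GB03 stood at 69.0, 67.1 and 59.9 CPM in gp1-2, against 53.2, 49.2 and 45.6 CPM in wild type. WRKY11, a repressor of basal resistance, was lower in gp1-2 without bacteria (-0.27 ± 0.09, adjusted p = 0.03) and higher with GB03 (0.41 ± 0.09, adjusted p = 0.0017). The first of these calls was lost in 4 of 22 alternatives, each with 1 library left out (replicates 1 or 2 of wild type, replicates 1 or 3 of gp1-2). WRKY17, its closest homologue, was not called between genotypes (-0.09 ± 0.08 and 0.09 ± 0.08). WRKY7 fell by 0.35 ± 0.09 without bacteria, and WRKY39 rose by 0.44 ± 0.08 and 0.38 ± 0.08.

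In group I, WRKY33, WRKY25 (AT2G30250) and WRKY26 (AT5G07100) are related proteins that act in heat responses, and WRKY33 is the regulator of camalexin synthesis in the defence against necrotrophic fungi. The WRKY33 transcript measured 529, 564 and 384 CPM in gp1-2 without bacteria, against 339, 281 and 153 CPM in wild type. Under GB03 the WRKY33 transcript measured 367, 261 and 220.4 CPM in gp1-2, against 33.5, 29.0 and 24.2 CPM in wild type. gp1-2 was 1.91-fold higher without bacteria (log2 fold change 0.93 ± 0.24, adjusted p = 0.0069) and 9.78-fold higher with GB03 (3.29 ± 0.27, adjusted p = 7.6e-08). Without bacteria WRKY26 had 42.1, 50.2 and 38.6 CPM in the gp1-2 libraries, against 14.7, 16.5 and 17.0 CPM in wild type. With GB03 WRKY26 had 19.9, 20.6 and 17.8 CPM in gp1-2, against 5.07, 6.19 and 5.11 CPM in wild type. WRKY26 differed by 1.44 ± 0.12 and 1.83 ± 0.13, and WRKY25 by 1.90 ± 0.10 and 1.70 ± 0.10. The genotypes did not overlap for these 3 members in either condition. WRKY1 rose by 0.35 ± 0.08 without bacteria. WRKY3 (AT2G03340), WRKY20 (AT4G26640), WRKY32 (AT4G30935) and WRKY44 (AT2G37260) of the same group were not called between genotypes, with log2 fold changes of -0.34 to 0.14 without bacteria and -0.19 to -0.10 with GB03. With upper-quartile scaling WRKY44 was called lower without bacteria and WRKY20 with GB03.

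The order of levels among the listed members, on the scale of CPM per kilobase of transcript, differed by group. In gp1-2 without bacteria WRKY70 (252 ± 19.8 CPM per kilobase) and WRKY33 (243 ± 47.2) headed the list and lay within 1 SD of each other. In wild type without bacteria WRKY33 came first at 127 ± 46.9, followed by WRKY15 at 53.1 ± 3.46, and WRKY70 was ninth. In gp1-2 with GB03 WRKY70 (164 ± 16.0) and WRKY33 (139 ± 37.2) again came first. In wild type with GB03 WRKY15 (29.2 ± 3.84), WRKY18 (29.2 ± 3.16) and WRKY11 (28.5 ± 2.21) shared the top within their SDs, WRKY33 was at rank 12, and WRKY70 was at rank 25. WRKY41, WRKY62, WRKY55, WRKY50, WRKY38 and WRKY30 were the lowest 6 in both wild-type groups.

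More of the listed WRKY transcripts were lower than higher with GB03 volatiles, in both genotypes. In gp1-2 16 members (34.8%) fell, against 17.6% of all genes, and 7 (15.2%) rose, against 14.7%. In wild type 19 (41.3%) fell, against 15.3% of all genes, and 4 (8.70%) rose, against 14.8%. The share that rose in gp1-2 was thus near that of all genes. The members' median log2 fold change with GB03 was -0.21 in each genotype, beside a median of 0.00 over all genes in each. Of the members, 11 fell in both genotypes, 2 rose in both (WRKY44 and WRKY48), and 13 were called in neither. The shares of all genes with these joint calls were not counted, so these numbers have no background beside them. The groups did not overlap for 23 members that were lower and 10 that were higher in gp1-2, against 24.7% and 22.6% of all genes. In wild type the numbers were 22 and 3, against 20.9% and 20.7%. Falls of at least 1 on the log2 scale numbered 2 in gp1-2 (WRKY40 and WRKY26) and 7 in wild type, against 3.02% and 3.56% of all genes. Those 2 falls were 4.35% of the members and thus near the background. Rises of at least 1 numbered 4 in gp1-2 (8.70%) and 1 in wild type (2.17%), against 2.9% and 2.5% of all genes. At this cut rises therefore outnumbered falls in gp1-2. Without replicate 3, 18 members fell and 6 rose in gp1-2, and 18 fell and 2 rose in wild type. Among the shoot marker genes 3 of 4 fell and 1 rose with GB03 in gp1-2, with sums of 11794 to 13328 CPM with GB03 and 16439 to 17217 CPM without bacteria. In wild type 1 fell and 1 rose, and the sums overlapped, at 29541 to 33617 CPM with GB03 and 27130.4 to 34670.0 CPM without bacteria. Their part in the WRKY result was not tested.

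In wild type the largest falls with GB03 were those of WRKY40, WRKY33, WRKY70, WRKY53, WRKY26 and WRKY22 (AT4G01250). WRKY40 averaged 3.84 ± 1.03 CPM with GB03 and 64.1 ± 41.0 CPM without bacteria in wild type, which is 16.8-fold lower with GB03 (log2 fold change -4.07 ± 0.43, adjusted p = 7.0e-06). WRKY33 averaged 28.9 ± 4.66 CPM with GB03 and 258 ± 95.1 CPM without bacteria, 8.93-fold lower (-3.16 ± 0.27, adjusted p = 8.8e-07). For both, the highest GB03 library was below the lowest library without bacteria. WRKY70 differed by -2.34 ± 0.27, WRKY53 by -1.92 ± 0.43, WRKY26 by -1.56 ± 0.14 and WRKY22, a target of the flagellin-activated MAP kinase cascade, by -1.42 ± 0.19. WRKY22 stood at 17.7, 16.6 and 15.8 CPM in gp1-2, against 17.8, 17.1 and 9.46 CPM in wild type, without bacteria. WRKY22 under GB03 stood at 13.7, 12.4 and 12.003 CPM in gp1-2, against 5.87, 5.40 and 5.56 CPM in wild type. WRKY46 was the seventh member with a fall of at least 1 in wild type, at -1.36 ± 0.31. The 4 rises were WRKY48 (1.16 ± 0.19), WRKY60 (0.70 ± 0.14), WRKY44, a regulator of trichome development (0.51 ± 0.14), and WRKY29 (0.48 ± 0.17). The libraries of WRKY29 overlapped, and its call was lost in 8 of 22 alternatives. That of WRKY44 was lost in 4 of 22, after thinning, without replicate 2 of either wild-type group, and with replicates 1 and 2 only.

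In gp1-2 the largest changes with GB03 were the rises of WRKY8, WRKY31, WRKY48 and WRKY38 and the falls of WRKY40 and WRKY26. WRKY8 averaged 32.0 ± 4.49 CPM with GB03 and 8.41 ± 1.24 CPM without bacteria in gp1-2 (log2 fold change 1.92 ± 0.14, adjusted p = 1.4e-07). WRKY31 averaged 36.1 ± 8.31 CPM with GB03 and 13.1 ± 1.68 CPM without bacteria (1.46 ± 0.17, adjusted p = 1.6e-05). The GB03 libraries lay above all others in both cases. WRKY48 differed by 1.12 ± 0.16 and WRKY38 by 1.06 ± 0.18, and WRKY62, WRKY63 and WRKY44 rose by 0.83, 0.81 and 0.68. The call of WRKY62 was lost in 4 of 22 alternatives, namely without replicate 2 or 3 of gp1-2 without bacteria, without replicate 2 of gp1-2 with GB03, and with replicates 1 and 2 only. The call of WRKY63 was lost in 5 of 22, after thinning and without replicate 1 or 2 of gp1-2 without bacteria or replicate 2 or 3 of gp1-2 with GB03. WRKY40 fell by 1.20 ± 0.34 (adjusted p = 0.013), a call that was lost without replicate 3 of gp1-2 with GB03. WRKY26 fell by 1.17 ± 0.11 (adjusted p = 1.8e-06). The fall of WRKY70 in gp1-2 by 0.62 ± 0.22 had an adjusted p of 0.048 and was lost in 13 of 22 alternatives, and that of WRKY33 by 0.80 ± 0.24 (adjusted p = 0.02) in 4 of 22. The 16 falls became 10 without replicate 2 of gp1-2 without bacteria and 9 without replicate 3 of gp1-2 with GB03.

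Genes of the early touch, wounding and handling response moved in the same direction as WRKY33 and WRKY40 with GB03. Of 11 such genes, 9 fell in gp1-2 and 10 fell in wild type, and 0 rose, with median log2 fold changes of -1.49 and -2.48. Of all genes 17.6% fell in gp1-2 and 15.3% fell in wild type. Their summed level was 1558 to 1667 CPM with GB03 and 2166 to 2554 CPM without bacteria in gp1-2, and 572 to 812 CPM with GB03 and 1187 to 1783 CPM without bacteria in wild type. Between genotypes 6 of the 11 rose and 0 fell with GB03, and 4 rose and 1 fell (CBF2) without bacteria, where 22.6% and 23.3% of all genes rose and fell with GB03 and 20% and 17.2% without bacteria. The transcription factor gene ZAT10 averaged 52.8 ± 14.7 CPM with GB03 and 168 ± 59.7 CPM without bacteria in gp1-2, and 6.16 ± 0.798 CPM with GB03 and 59.8 ± 39.1 CPM without bacteria in wild type. The interaction was positive and called for 3 of the 11 (CML38, ZAT12 and ERF6), against 1.48% of all genes. The part of this response in the WRKY results was not tested. None of the 11 listed genes was at 0 in any library.

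The effect of GB03 differed between genotypes for 10 members, in 9 of them (19.6% of the members) in the positive direction, against 1.48% of all genes, and in WRKY60 in the negative direction, against 1.32% of all genes. A positive value means that the GB03 effect was higher, or less negative, in gp1-2. At an unadjusted p under 0.05, 14 members differed in either direction, against 15.1% of all genes. The largest difference was that of WRKY40, at 2.87 ± 0.54 on the log2 scale (adjusted p = 0.01), and limma-voom gave it an adjusted p of 0.054. WRKY33 followed at 2.36 ± 0.35 (adjusted p = 0.0023), WRKY8 at 2.05 ± 0.42 (adjusted p = 0.015) and WRKY70 at 1.72 ± 0.35 (adjusted p = 0.015). WRKY33 and WRKY70 were alike in the order of the groups: the GB03 libraries of wild type were far below its libraries without bacteria, and the fall in gp1-2 was smaller. In WRKY8 and WRKY31 (1.26 ± 0.28) it was gp1-2 that rose with GB03, while the wild-type groups overlapped. Of the 4 shoot marker genes, CAB3 and CA1 had a called negative interaction, and their part in these differences was not tested.

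The WRKY2 transcript measured 29.0, 28.6 and 25.3 CPM in gp1-2 without bacteria, against 23.7, 27.7 and 23.9 CPM in wild type. Under GB03 the WRKY2 transcript measured 25.2, 25.8 and 22.7 CPM in gp1-2, against 15.6, 14.5 and 11.6 CPM in wild type. WRKY2, which acts in abscisic acid responses of germinating seeds, thus fell with GB03 in wild type (-0.85 ± 0.12) and had a difference of -0.17 ± 0.11 in gp1-2. Its interaction was 0.68 ± 0.16, that of WRKY11 0.67 ± 0.13, that of WRKY22 1.02 ± 0.25 and that of WRKY15 0.57 ± 0.14. WRKY60 went the other way, at -0.80 ± 0.18: its GB03 effect was -0.10 ± 0.11 in gp1-2 and 0.70 ± 0.14 in wild type. WRKY54 had a larger negative value, -0.98 ± 0.26, that missed the threshold (adjusted p = 0.062) but was called by DESeq2, without the filter, with the replicate block and after thinning. Of the 10 calls, those of WRKY11, WRKY33 and WRKY70 held in every alternative tried. Those of WRKY2, WRKY15, WRKY22, WRKY31 and WRKY60 were lost in 7 to 12 of 21 alternatives, mostly when 1 library was left out. That of WRKY8 was lost without replicate 3 of wild type without bacteria. The 9 positive calls became 5 without replicate 2 of wild type without bacteria, replicate 2 or 3 of wild type with GB03, replicate 1 or 2 of gp1-2 without bacteria, or replicate 1 or 2 of gp1-2 with GB03. Without replicate 3, 8 of the positive interactions and 1 negative interaction were called, and WRKY15 was not.

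**Figure D3:**
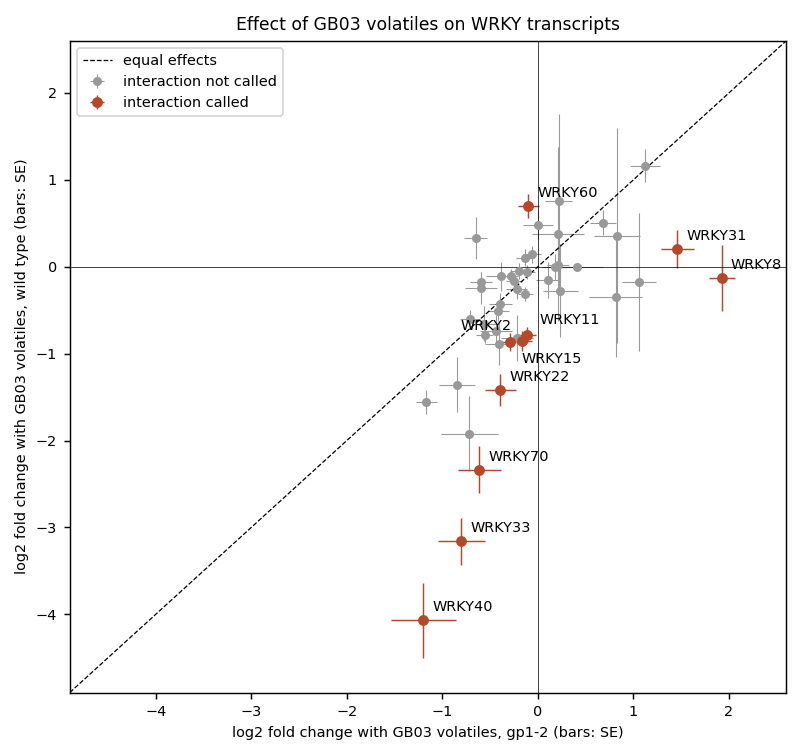
Log2 fold change with GB03 volatiles in gp1-2 (horizontal) and in wild type (vertical) for the 46 members; bars are SE, the dashed line marks equal effects, and named points have a called interaction. WRKY40, WRKY33 and WRKY70 lie below the line with values of -4.07, -3.16 and -2.34 in wild type. WRKY41, with no count in wild type, is drawn at 0 on the vertical axis.

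**Figure D4:**
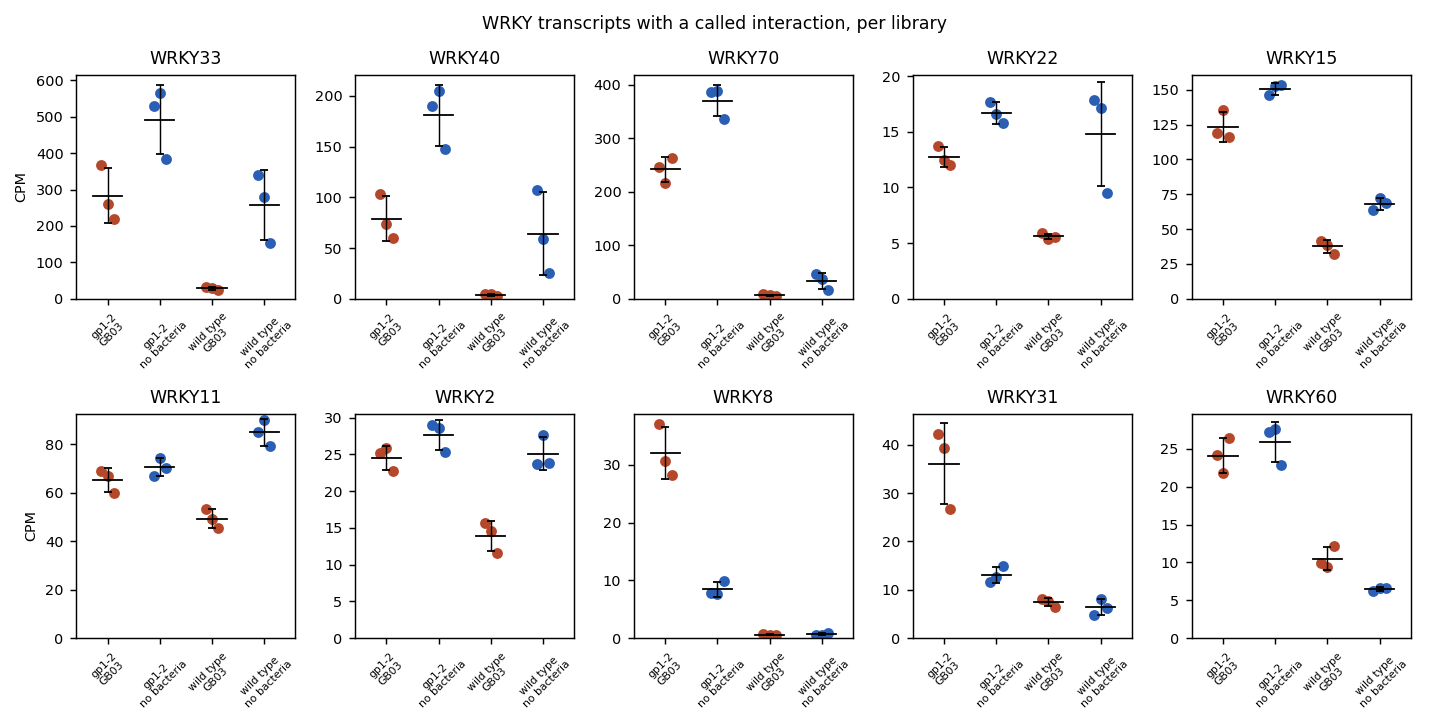
Normalised read counts (CPM) of the 10 members with a called interaction, 1 point per library, for gp1-2 with GB03, gp1-2 without bacteria, wild type with GB03 and wild type without bacteria; horizontal bars are means and error bars SD (n = 3). Each panel has its own axis from 0. In WRKY33, WRKY40 and WRKY70 the wild-type GB03 libraries are the lowest of the 4 groups, and in WRKY8 the gp1-2 GB03 libraries are the highest.

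Members with similar coding sequences did not always move together. The most similar pair, WRKY11 and WRKY17 (76.2% identical bases over the aligned coding sequences), had log2 fold changes between genotypes of -0.27 and -0.09 without bacteria and 0.41 and 0.09 with GB03. WRKY31 and WRKY42 (74.6%) had 1.03 and 0.59 without bacteria and 2.29 and 0.24 with GB03. WRKY3 and WRKY4 (73.0%), which act in resistance to necrotrophic fungi, had -0.08 and 0.26 without bacteria and -0.19 and 0.36 with GB03, of which that of WRKY4 with GB03 was called. The libraries of WRKY4 overlapped there, and the call was lost in 4 of 22 alternatives, with upper-quartile scaling and without replicate 1 of wild type or replicate 1 or 2 of gp1-2. In WRKY45 and WRKY75 (64.7%), WRKY18 and WRKY60 (64.5%), WRKY41 and WRKY53 (64.5%) and WRKY8 and WRKY28 (63.4%) both members rose in both conditions. No difference between members of a pair was tested.

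Genes that act with the WRKY factors were described from lists of kinases, binding partners and targets. In the MAP kinase cascades that act on WRKY factors all 8 genes rose in gp1-2 in both conditions, with median log2 fold changes of 0.91 without bacteria and 1.28 with GB03, where 20% and 22.6% of all genes rose. MKK1 averaged 56.1 ± 3.85 CPM in gp1-2 and 10.9 ± 1.33 CPM in wild type without bacteria, and MPK3, which phosphorylates WRKY33, averaged 299 ± 40.8 CPM in gp1-2 and 86.7 ± 13.9 CPM in wild type with GB03. With GB03 2 of the 8 rose and 1 fell in gp1-2, and 0 rose and 1 fell in wild type (MPK3, by 1.43 on the log2 scale). These counts were near the background, in which 14.7% of genes rose and 17.6% fell in gp1-2, while 14.8% rose and 15.3% fell in wild type.

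Of 34 VQ-motif genes 28 were tested. Without bacteria 13 rose and 2 fell in gp1-2, and with GB03 17 rose and 1 fell, with medians of 0.47 and 0.93. Of all genes tested 20% rose and 17.2% fell without bacteria, and 22.6% rose and 23.3% fell with GB03. SIB1, a partner of WRKY33, averaged 115 ± 19.7 CPM in gp1-2 and 10.03 ± 5.78 CPM in wild type without bacteria. With GB03 2 VQ genes rose and 7 fell in gp1-2, and 0 rose and 9 fell in wild type, SIB1 among the falls in wild type at -2.01 ± 0.35. With GB03 14.7% of all genes rose and 17.6% fell in gp1-2, while 14.8% rose and 15.3% fell in wild type.

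Among 13 genes reported as direct WRKY targets, 12 were tested. In gp1-2 7 rose and 0 fell without bacteria, and 10 rose and 0 fell with GB03, with medians of 2.84 and 3.73, against the shares of all genes given for the VQ genes. The camalexin gene PAD3, a target of WRKY33, averaged 131 ± 15.7 CPM in gp1-2 and 5.99 ± 0.724 CPM in wild type without bacteria, and 288 ± 21.5 CPM in gp1-2 and 10.3 ± 0.320 CPM in wild type with GB03. CYP71A13, of the same pathway, averaged 77.8 ± 15.5 CPM in gp1-2 and 0.290 ± 0.343 CPM in wild type without bacteria. PBS3, which acts in salicylic acid synthesis, averaged 113 ± 12.1 CPM in gp1-2 and 0.438 ± 0.122 CPM in wild type without bacteria, and FRK1, a receptor kinase gene, 74.8 ± 7.98 CPM in gp1-2 and 1.52 ± 0.428 CPM in wild type. With GB03 6 of the targets rose and 0 fell in gp1-2, and 2 rose and 3 fell in wild type. Of all genes 14.7% rose and 17.6% fell in gp1-2, and 14.8% rose and 15.3% fell in wild type, so the wild-type counts of the targets were near the background. In gp1-2 PAD3 and CYP71A13 rose with GB03, by 1.14 ± 0.10 and 2.17 ± 0.19. The transcript of WRKY33 fell there by 0.80, a call lost in 4 of 22 alternatives. The part of WRKY33 in the levels of these targets was not tested. Of the interactions of the 12 target genes 0 were called, where 1.48% of all genes had a positive and 1.32% a negative call. For so few genes 0 calls is near this background. Among the 8 MAP kinase genes 2 interactions were called positive, and among the 28 VQ genes 4, with 0 negative in either list.

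WRKY29, WRKY57 (AT1G69310) and WRKY61 were not called between genotypes, with log2 fold changes of 0.19, -0.03 and 0.05 without bacteria and -0.29, 0.01 and 0.35 with GB03. With GB03 WRKY57, which acts in drought tolerance, fell in both genotypes (log2 fold changes -0.39 ± 0.12 in gp1-2 and -0.43 ± 0.13 in wild type), and WRKY61 fell in wild type (-0.74 ± 0.19). The gp1-2 call of WRKY57 was lost in 4 of 22 alternatives, each without 1 of replicates 1 or 2 of gp1-2 without bacteria and replicates 1 or 3 of gp1-2 with GB03. Its wild-type call was lost in 3 of 22, all of them without a replicate 3, with a log2 fold change as small as -0.21. WRKY32, WRKY65 (AT1G29280), WRKY69 and WRKY72 (AT5G15130) were called in none of the 5 comparisons, apart from the lower calls of WRKY65 with GB03 under upper-quartile scaling and the replicate block named above. Their levels ran from 7.40 ± 0.168 CPM (WRKY69 in wild type with GB03) to 41.7 ± 2.95 CPM (WRKY65 in wild type without bacteria). Members named as uncalled are not shown to be equal between groups. The labels call the replicates biological and name no shared batch. The p-values measure the spread between these cultures, including any part that same-numbered libraries share, since the main fit had no block.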

How the data were processed

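RNA-seq was made from total RNA of 12 whole-seedling samples, 3 replicates in each of 4 groups, which the labels call biological. The authors deposited 1 table of raw read counts per gene, and per the submitters' processing notes the tools were Trimmomatic 0.36, HISAT2 2.1.0 and HTSeq 0.9.1 with the TAIR10 genome. The library kit and the strand setting of the counting are not given in the sources used here.

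From these counts, genes were filtered with filterByExpr and fitted with edgeR 4.0.16 (R 4.3.3; TMM factors, quasi-likelihood F test, 1 coefficient per group over all 12 libraries). Adjusted p-values are Benjamini-Hochberg values over 20736 genes, and SE is the absolute log2 fold change divided by the square root of F. edgeR put the common variation between replicates at a coefficient of 0.109. Alternatives used DESeq2 1.42.0, limma 3.58.1 (voom), other scaling factors and filters, the replicate number as a block, libraries thinned to the smallest total, and each library left out.

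Same-numbered libraries deviated together in the genotype comparison without bacteria (correlations of their deviations from the group means 0.218, 0.113 and 0.170). These correlations were also positive between genotypes with GB03 (0.0347 to 0.253) and for GB03 in gp1-2 (0.0475 to 0.186). Between genotypes with GB03, replicate 2 of gp1-2 and replicate 1 of wild type also had 0.170. For GB03 in wild type they ran from -0.0317 to 0.0456. The labels name nothing that same-numbered samples share. The members and lists were chosen with earlier results of these data known. Values in every library are given for members called in the interaction, for the 6 called members with the largest change in each other comparison, and for members with a known role in salicylic acid or low-oleate defence. The other members are given by means or fold changes. Among the list genes ZAT10, MKK1, MPK3, SIB1, PAD3, CYP71A13, PBS3 and FRK1 were named after their values were seen. Sequences, coordinates, classes, transcript lengths and coding identities were read from the RefSeq genome and annotation of TAIR10.1, in which all 46 members matched. Count ratios have exact 95% intervals.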

Additional observations from a re-analysis of the deposited data

Results flagged for a closer look

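For 10 of the 46 members the effect of GB03 differed between gp1-2 and wild type by edgeR's interaction test, and these results are listed for that reason. Each value is the log2 effect of GB03 in gp1-2 minus that in wild type. WRKY40 had 2.87, WRKY33 2.36, WRKY8 2.05 and WRKY70 1.72. WRKY31 had 1.26 and WRKY22 1.02, and smaller differences were those of WRKY2 (0.68), WRKY11 (0.67) and WRKY15 (0.57). WRKY60 had the single negative value, -0.80. Of these, WRKY33, WRKY40 and WRKY46 were the members that were lowest in replicate 3 of all 4 groups, WRKY46 having no called interaction. With replicates 1 and 2 alone WRKY33 had 2.51, WRKY40 3.07 and WRKY70 1.83, each still called. Groups of 3 libraries are too small for a test of single outlying samples.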

How the results depend on the processing

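Across 2630 comparisons of a called member's value with the same value under an alternative, 2495 kept their direction and stayed called, 135 were no longer called, and 0 changed sign. Alternatives on all 12 libraries kept 1047 of 1070 and leaving out 1 library kept 1334 of 1440. Counts of members called higher and lower between genotypes ran from 29 to 31 and from 1 to 2 without bacteria and from 31 to 32 and from 0 to 1 with GB03 when 1 library was left out. For GB03 in gp1-2 they ran from 5 to 7 and from 9 to 19, for GB03 in wild type from 2 to 4 and from 17 to 19, and for the interaction from 5 to 8 and from 0 to 1.

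Upper-quartile scaling, which shifted the all-gene median difference between genotypes to -0.11 (no bacteria) and -0.13 (GB03), called 2 members lower with GB03 and 3 lower without bacteria, in place of 0 and 2. The cause of the other changes was not tested. Requiring a log2 fold change of at least 1 left 0 lower calls between genotypes without bacteria, 4 higher and 2 lower calls for GB03 in gp1-2, 1 higher and 7 lower calls for GB03 in wild type, and 0 negative interactions. Replicates 1 and 2 alone, an alternative chosen after seeing the data, gave 2 higher calls for GB03 in wild type. A second negative interaction, that of WRKY54 (2 in all), was called without the filter, by DESeq2, with the replicate block and after thinning.

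With the replicate number as a block 0 of 120 called values were lost. The block gave 1 lower call between genotypes with GB03, 20 lower calls for GB03 in gp1-2 and 10 positive and 2 negative interactions. Between genotypes without bacteria, where every same-numbered pair deviated together, the calls stayed at 30 higher and 2 lower. Same-numbered correlations were also positive between genotypes with GB03 and for GB03 in gp1-2, but not for every pair for GB03 in wild type. The labels do not say what same-numbered libraries share. After thinning every library to the smallest total, 112 of 120 called values stayed called. The 8 lost were WRKY20, WRKY63 and WRKY70 for GB03 in gp1-2, WRKY44 and WRKY75 for GB03 in wild type, and WRKY2, WRKY15 and WRKY31 for the interaction.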
